A study of Mus musculus with 12 samples.

Results

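The transcripts of 8 genes that mark muscle satellite cells or direct myogenic differentiation were followed in mouse muscle: Pax7, Cdh15, Ncam1, Myf5, Myod1, Myog, Myf6 and Cdkn1a. They were chosen by symbol, each through the Ensembl gene that carries it, from the 47729 genes of the count table. Each symbol matched 1 row, and all 8 passed the filter on low counts that kept 14194 genes for testing. The libraries came from muscle of male C57BL/6 mice at 5 months of age, in 4 groups of 3: wild-type (WT) and NRF2-KO animals, each either without exercise (sedentary) or with treadmill exercise. NRF2-KO mice lack NRF2, the transcription factor encoded by Nfe2l2 that drives antioxidant and detoxifying genes. The labels name no other allele or agent, and they do not give the muscle, the length of the exercise, the reach of the knockout or the origin of the 3 libraries of a group. The p-values therefore measure the spread between these libraries, which may be technical.

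Satellite cells are the stem cells of skeletal muscle and lie between a fibre and its basal lamina. Pax7 marks them at rest, Myf5 and Myod1 commit them to the muscle lineage, Myog and Myf6 carry their daughters into differentiation, and Cdkn1a arrests the cell cycle as they leave it. Fibre nuclei also transcribe some of these genes, Myf6 above all, and denervation is known to raise Myod1, Myog, Ncam1 and Cdkn1a in fibres. In bulk muscle RNA, fewer cells of a type and less RNA per cell cannot be told apart.

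Library totals ran from 21232040 to 29990968 counts, and levels are given as CPM, in which each count is scaled to the normalized total of its library. Nfe2l2 stood at 2.14 to 3.23 CPM in the 6 NRF2-KO libraries and at 35.3 to 41.8 CPM in the 6 WT libraries. Myh4, the myosin of the fastest fibres, ran from 27807 to 39410 CPM and Myh7, the slow myosin, from 26.2 to 76.5 CPM. All 6 defining satellite cell markers (Pax7, Myf5, Cdh15, Calcr, Vcam1 and Itga7) had counts in every library. Of the sequencing lanes, 3 and 4 each carried 5 libraries, of WT and NRF2-KO mice alike. WT sedentary replicate 1 was alone on lane 7 and WT treadmill replicate 1 on lane 8, and both stood apart from the other 10 libraries on the first principal component, at -31.1 and -28.3 against -2.58 to 13.9.

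Myf5, Myod1, Myog and Myf6 form a family of basic helix-loop-helix factors that bind E-boxes as dimers with E proteins. The 60 coding bases, in frame and without a gap, at which the other factors together were most like Myf5 lie in exon 1 of each gene. They are shown because their likeness bears on whether reads can be told apart. The 4 stretches (GENCODE M21 transcripts, GRCm38) lie at chr10:107485536-107485595 on the minus strand for Myf5, chr7:46377087-46377146 on the plus strand for Myod1, chr1:134290386-134290445 on the plus strand for Myog and chr10:107494279-107494338 on the minus strand for Myf6. Capitals mark the 43 of 60 bases that are the same in all 4.
Myf5: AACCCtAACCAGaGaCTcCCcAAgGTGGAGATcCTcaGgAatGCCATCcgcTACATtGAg
Myod1: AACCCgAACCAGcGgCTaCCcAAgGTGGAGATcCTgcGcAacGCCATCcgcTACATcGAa
Myog: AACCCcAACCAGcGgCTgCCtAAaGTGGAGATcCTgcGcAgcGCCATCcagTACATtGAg
Myf6: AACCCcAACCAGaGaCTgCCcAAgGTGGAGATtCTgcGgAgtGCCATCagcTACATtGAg
Identity between pairs ran from 78.3% (Myf5 and Myog) to 88.3% (Myf5 and Myf6). The longest run of identical bases between 2 of the transcripts was 26, between Myf5 and Myod1, and no stretch of 50 bases of these 4 genes, Pax7 or Cdh15 was found in a transcript of another gene. For Ncam1, 3.06% of such stretches were shared with another gene, and for Cdkn1a 8.49%, so a part of their reads could have been assigned elsewhere. Exons of Ncam1 overlap those of Gm11149 on the other strand by 417 bases, and exons of Cdkn1a overlap those of AC167363.2 on the other strand by 273. The library kit does not mark strand, so reads from these overlaps cannot be told apart.

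The 8 genes spanned a wide range of levels. Compared per length, as CPM per kilobase of exon (mean ± SD over 12 libraries), Myf6 was the highest at 113 ± 9.49, above 98.1% of the genes tested, and Myod1 followed at 9.80 ± 1.08. Cdh15 was at 3.15 ± 0.33, Myog at 2.50 ± 0.57 and Cdkn1a at 2.08 ± 0.55. Myf5 was at 0.872 ± 0.155, Pax7 at 0.320 ± 0.057 and Ncam1 at 0.315 ± 0.047. The ranges of neighbours in this order overlapped for Cdh15 and Myog, for Myog and Cdkn1a, and for Pax7 and Ncam1. Between the other neighbours the higher gene exceeded the lower in 12 of 12 libraries, and Myf6 exceeded Myod1 by 11.5-fold on average. The stem cell gene Pax7 was above only 14.7% of the genes tested, with 33 to 80 counts in a library.

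**Figure D1:**
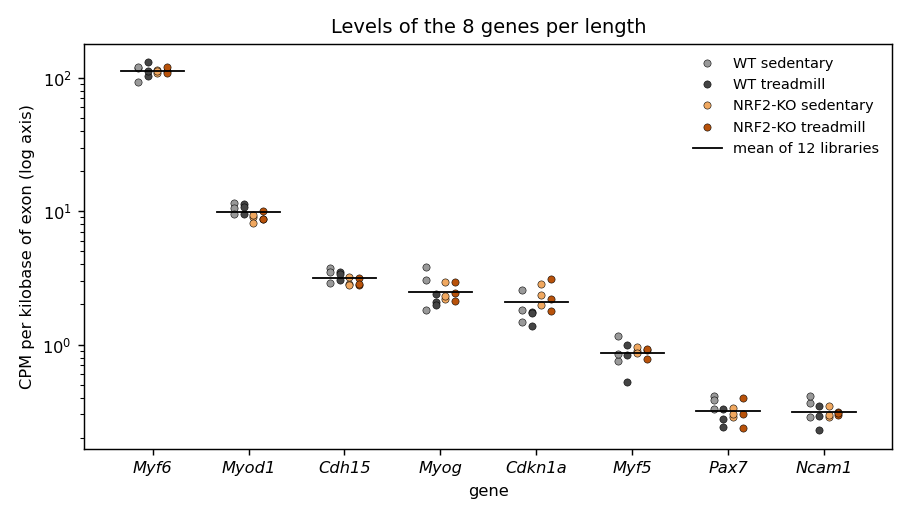
Level of each gene per length (CPM per kilobase of exon, log axis) in the 12 libraries, coloured by group, with the mean of 12 libraries as a line. Myf6 stands at 113, Myod1 at 9.80, and Pax7 and Ncam1 lie together near the bottom at 0.320 and 0.315.

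The first question put to these genes was whether loss of NRF2 moved them. No member passed in the comparison of NRF2-KO with WT averaged over exercise, at an adjusted p under 0.05 in the quasi-likelihood test of edgeR, with Benjamini-Hochberg adjustment over the whole table of tested genes. That comparison called 98 of 14194 genes (0.69%). At an unadjusted p under 0.05 it held 3 of the 8 members (Cdkn1a, Myod1 and Cdh15), where 12.4% of all genes did, and DESeq2 called 0 members. Within sedentary mice 0 members passed, against 0.19% of all genes, and within treadmill mice 0, against 0.162%. At an unadjusted p under 0.05 the counts were 1 member (Myod1) in sedentary and 1 (Cdkn1a) in treadmill mice, beside 7.65% and 6.72% of all genes.

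**Figure D2:**
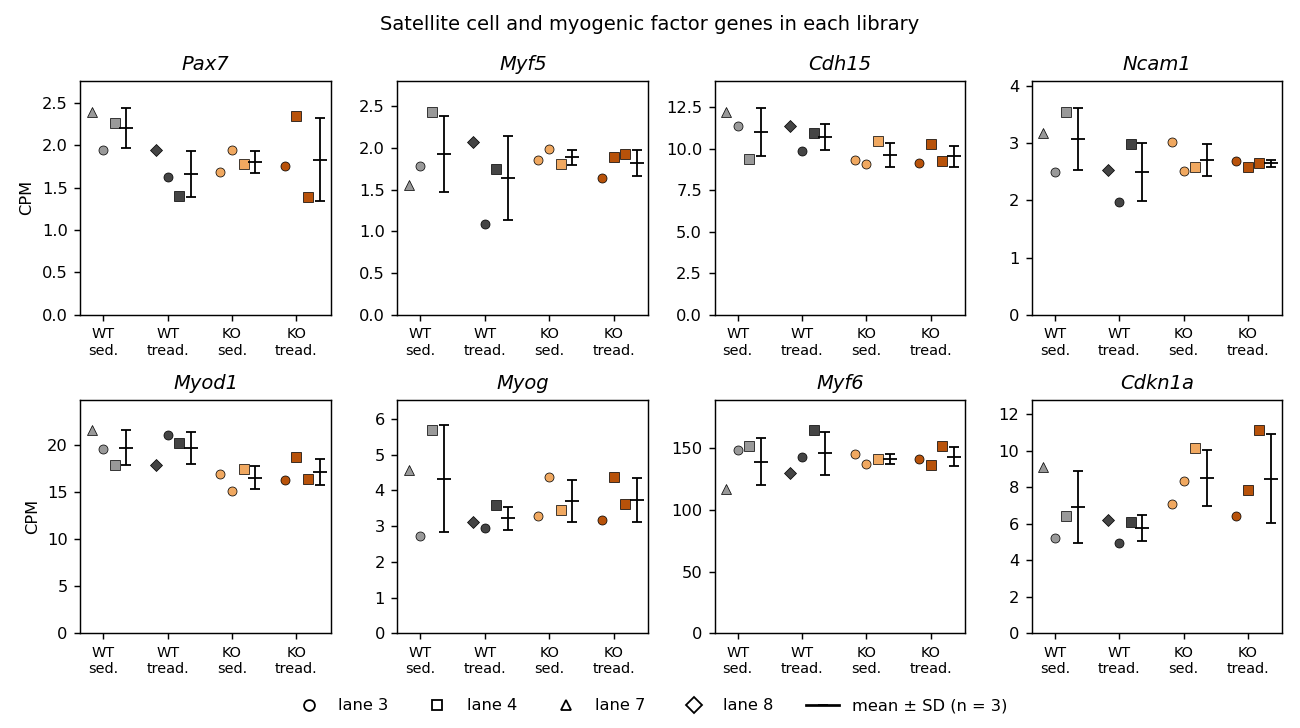
CPM of each of the 8 genes in the 12 libraries by group, with symbols for the sequencing lane and the mean ± SD (n = 3) beside each group. Cdkn1a in NRF2-KO libraries runs from 6.40 to 11.1 CPM against 4.93 to 9.11 in WT, and Myod1 from 15.1 to 18.7 against 17.8 to 21.6.

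Cdkn1a encodes p21, the inhibitor of cyclin-dependent kinases that holds differentiating myoblasts out of the cell cycle and is a direct target of p53. The gene lies on chromosome 17 from 29090976 to 29100727 (GRCm38, plus strand). RefSeq (GRCm38.p6) gives it a pair of starts, and the 250 bases before each are shown because this member had the largest fitted difference between genotypes. Capitals mark a paired p53 core (CATGNNNNNNCATG) before the upstream start at chr17:29090729-29090978 and an E-box (CANNTG) before the downstream start at chr17:29093519-29093768.
Upstream start: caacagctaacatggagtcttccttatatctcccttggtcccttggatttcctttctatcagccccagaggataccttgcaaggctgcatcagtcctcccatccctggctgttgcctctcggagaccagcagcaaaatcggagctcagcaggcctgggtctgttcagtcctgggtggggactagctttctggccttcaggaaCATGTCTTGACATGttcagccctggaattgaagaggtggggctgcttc
Downstream start: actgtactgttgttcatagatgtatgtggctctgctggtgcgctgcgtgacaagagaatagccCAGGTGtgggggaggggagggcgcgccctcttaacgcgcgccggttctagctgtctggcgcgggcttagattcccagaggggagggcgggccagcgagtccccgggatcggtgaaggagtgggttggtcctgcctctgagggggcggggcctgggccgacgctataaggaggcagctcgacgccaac
Searched on both strands, the paired p53 core was present in 0.490% of 32851 promoter windows of the same length and the E-box in 66.2%. The p53 letters were chosen after the sequence had been seen. Neither window held the core of the NRF2 element (TGACNNNGC), which 10.2% of windows held.

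In WT sedentary libraries 1 to 3 Cdkn1a stood at 9.11, 5.22 and 6.41 CPM, and in WT treadmill libraries at 6.22, 4.93 and 6.09 CPM. NRF2-KO sedentary libraries held 7.08, 8.31 and 10.1 CPM and NRF2-KO treadmill libraries 6.40, 7.86 and 11.1 CPM. The genotypes overlapped: WT sedentary replicate 1, the library of lane 7, was the highest WT library and lay above 4 of the 6 NRF2-KO libraries, and WT sedentary replicate 3 lay just above NRF2-KO treadmill replicate 1. Means were 8.48 ± 1.81 CPM (SD, n = 6) in NRF2-KO and 6.33 ± 1.48 CPM in WT, a log2 fold change of 0.42 ± 0.16 (SE; 95% confidence interval 0.08 to 0.76) that did not pass (edgeR adjusted p = 0.292). In treadmill mice the groups did not overlap, as for 13% of all genes, and the log2 fold change was 0.55 (interval 0.07 to 1.03, edgeR adjusted p = 0.687). In sedentary mice it was 0.29, with an interval of -0.18 to 0.76 and an edgeR adjusted p of 0.799.

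Within each lane that held both genotypes the Cdkn1a libraries did not overlap between them. This held for 1 of the 8 members and, in the same direction on both lanes, higher or lower, for 6.33% of all genes. On lane 3 the 3 NRF2-KO libraries ran from 6.40 to 8.31 CPM and the 2 WT libraries were at 5.22 and 4.93 CPM. On lane 4 the 3 NRF2-KO libraries ran from 7.86 to 11.1 CPM and the 2 WT libraries were at 6.41 and 6.09 CPM. WT sedentary replicate 1, on lane 7, was at 9.11 CPM and WT treadmill replicate 1, on lane 8, at 6.22 CPM, and these lanes gave no comparison. With lane as a term in the fit, Cdkn1a passed, at a log2 fold change of 0.59 (edgeR adjusted p = 0.0169), in a fit that called 1.86% of all genes. The same fit without the libraries of lanes 7 and 8, a choice made after the data were seen, gave 0.58 (edgeR adjusted p = 0.0134) and called 1.93% of all genes. The lane term joined lanes 7 and 8, which hold WT libraries alone, so both fits compared the genotypes within lanes 3 and 4. The latter fit is therefore not a separate check of the former. Within lane 3 alone the value was 0.51 (edgeR adjusted p = 0.139), within lane 4 alone 0.64 (edgeR adjusted p = 0.178), and with lanes 7 and 8 simply left out 0.58 (edgeR adjusted p = 0.102). Without the filter on low counts the gene also passed (0.40, edgeR adjusted p = 0.00552), where 2.15% of 26350 genes did. Leaving out 1 library at a time gave 0.29 to 0.55, the lowest without NRF2-KO treadmill replicate 3 and the highest without WT sedentary replicate 1, with edgeR adjusted p from 0.131 to 0.521.

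**Figure D3:**
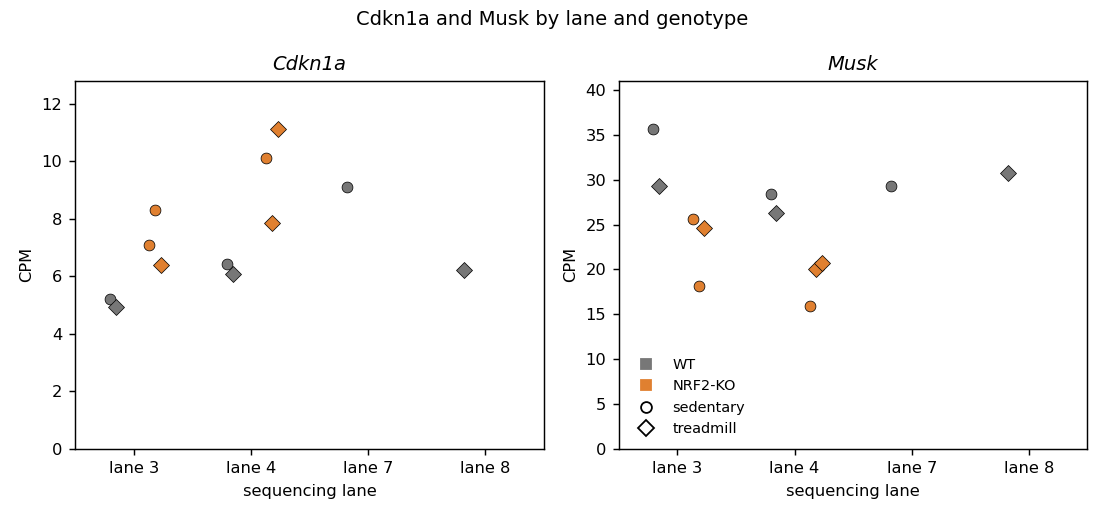
CPM of Cdkn1a (left) and of Musk (right) by sequencing lane, with WT in grey, NRF2-KO in orange, circles for sedentary and diamonds for treadmill mice. On lanes 3 and 4 every NRF2-KO library lies above the WT libraries of its lane for Cdkn1a and below them for Musk, and lanes 7 and 8 hold 1 WT library each.

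Cdkn1a was also the member whose libraries varied most. Its biological coefficient of variation, the replicate spread beyond counting error in edgeR, was 0.182, where the median of the 500 genes nearest in level was 0.103 and 94.8% of those genes were lower. Myog followed at 0.173, against 0.120 for genes of like level, with 86.8% lower. The other 6 members lay between 0.0870 (Myod1) and 0.146 (Myf5), above 33.8% to 73.2% of the genes of like level.

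Myod1, the factor that can turn other cell types into muscle, was the member with the smallest p, in the opposite direction. It lies on chromosome 7 from 46376474 to 46379099 (plus strand). Its libraries 1 to 3 were at 21.6, 19.6 and 17.9 CPM in WT sedentary and 17.8, 21.01 and 20.2 CPM in WT treadmill mice. NRF2-KO sedentary libraries were at 16.9, 15.1 and 17.4 CPM and NRF2-KO treadmill libraries at 16.3, 18.7 and 16.4 CPM. Every sedentary NRF2-KO library was below every sedentary WT library, as for 12% of all genes in either direction, while 1 treadmill NRF2-KO library overlapped the treadmill WT group. The averaged log2 fold change was -0.23 ± 0.07 (SE; interval -0.38 to -0.07), from 19.7 ± 1.57 CPM in WT to 16.8 ± 1.22 CPM in NRF2-KO (SD, n = 6), with an unadjusted p of 0.00659 and an edgeR adjusted p of 0.204. Within lane 3 it was -0.34 and within lane 4 -0.12, in fits with genotype alone as a term.

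Cdh15 encodes M-cadherin, the adhesion protein between satellite cell and fibre, and lies on chromosome 8 from 122847966 to 122867397 (plus strand). Among the windows before the 6 RefSeq starts found for 5 members (Cdh15, Cdkn1a, Myf5, Myog and Pax7), that of Cdh15 was the one holding an NRF2 element core. Of all 32851 windows of this length 10.2% held that core, and whether NRF2 acts at this match was not tested. The core begins 103 bases before the RefSeq start and is shown in capitals within 30 bases at chr8:122848261-122848290 (GRCm38.p6, plus strand). These bases lie inside the span that GENCODE gives the gene.
Cdh15: atcccgcccaTGACTCTGCcccccatgcag
The gene had 12.3, 11.4 and 9.40 CPM in WT sedentary and 11.4, 9.86 and 10.9 CPM in WT treadmill libraries. It had 9.33, 9.11 and 10.5 CPM in NRF2-KO sedentary and 9.13, 10.3 and 9.28 CPM in NRF2-KO treadmill libraries. The highest 3 values were WT libraries, 2 of them those of lanes 7 and 8, and the ranges of the genotypes overlapped. The averaged log2 fold change was -0.18 (interval -0.35 to -0.01; edgeR adjusted p = 0.371), and it was -0.12 with lane as a term. Within lane 3 the value was -0.22 and within lane 4 -0.02.

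For the other 5 members the averaged log2 fold changes ran from -0.09 to 0.05, within the spread of the libraries, and the edgeR adjusted p from 0.858 to 0.995. For Pax7, the paired-box factor that defines satellite cells (chromosome 4, 139737062 to 139833528, minus strand), the interval was -0.40 to 0.23. For Myf5, the first of the family to act in the embryo (chromosome 10, 107482908 to 107486134, minus strand), it was -0.30 to 0.41. Ncam1, a cell adhesion molecule of satellite cells, denervated fibres, nerve and Schwann cells (chromosome 9, 49502136 to 49798925, minus strand), had -0.32 to 0.22. Myog (chromosome 1, 134289989 to 134292548, plus strand) had -0.35 to 0.33, and Myf6 (chromosome 10, 107492853 to 107494737, minus strand) had the narrowest interval, -0.16 to 0.16. On the fold scale the interval of Pax7 ran from 0.757 to 1.17 and that of Myf6, with far more counts, from 0.895 to 1.11.

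**Figure D4:**
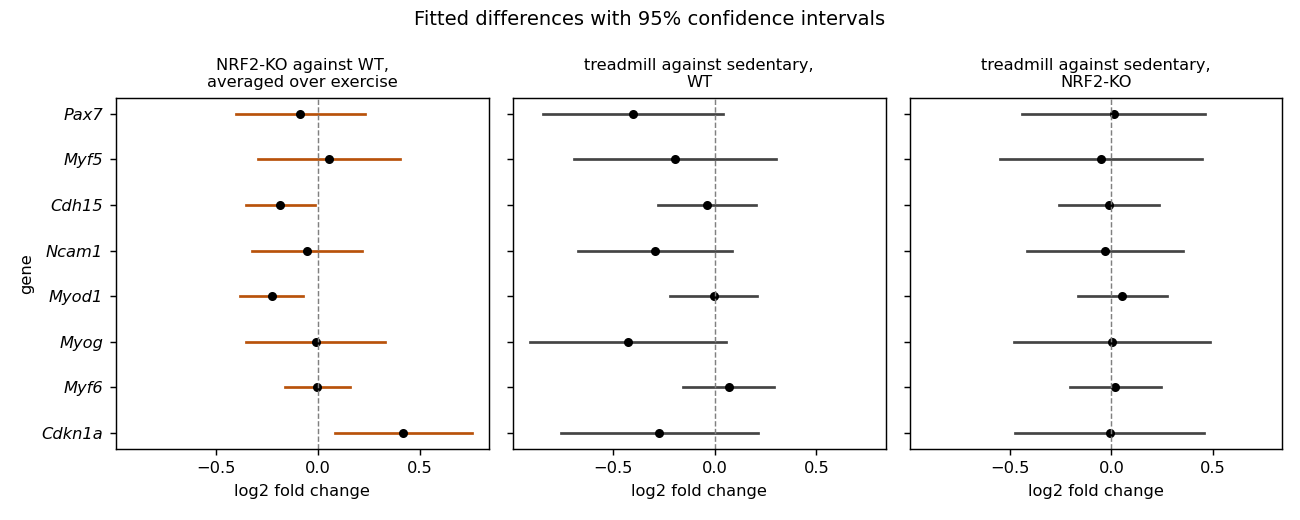
Fitted log2 fold changes (points) with 95% confidence intervals (lines) of the 8 genes for NRF2-KO against WT averaged over exercise and for treadmill against sedentary within each genotype. In the genotype comparison Cdkn1a lies at 0.42 and Myod1 at -0.23, and within NRF2-KO mice every treadmill value lies between -0.05 and 0.05.

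Treadmill exercise was compared with the sedentary state in each genotype. No member passed in WT, in NRF2-KO or averaged over genotype, and none passed in the interaction, which asks whether the exercise difference depended on genotype. Each of these comparisons called 0% of the 14194 genes in edgeR, and at an unadjusted p under 0.05 they held 0 of the 8 members, against 2.17%, 3.76%, 4.15% and 1.9% of all genes. DESeq2 called 0 members in each. The replicate numbers of the WT libraries were taken to pair them, although no label states a pairing. In WT mice these numbers follow the sequencing lanes, so pairing and lane cannot be told apart. With that number as a block within WT the exercise comparison called 1 gene, which was not a member. In WT mice 7 of 8 members had a fitted value below 0, with a median of -0.23, where 50.9% of all genes were above 0. In NRF2-KO mice 4 were above and 4 below 0, all between -0.05 and 0.05, with intervals reaching from -0.55 to 0.49. Both genotype comparisons within an exercise state and both exercise comparisons share groups of libraries, so these values are not independent.

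Pax7 and Myog had the largest fitted differences with exercise in WT mice. Pax7 was at 2.397, 1.95 and 2.27 CPM in sedentary and at 1.95, 1.63 and 1.405 CPM in treadmill libraries of WT mice. The groups did not overlap, although their nearest libraries were level to the digits given, and 5.72% of all genes did not overlap in this comparison. The log2 fold change was -0.40 ± 0.21 (SE; interval -0.85 to 0.04; edgeR adjusted p = 0.999). NRF2-KO libraries, at 1.68, 1.95 and 1.77 CPM in sedentary and 1.76, 2.35 and 1.39 CPM in treadmill mice, overlapped. The interaction for Pax7 was 0.41, with an interval of -0.22 to 1.05 and an edgeR adjusted p of 1.

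Myog encodes myogenin, which switches myoblasts into terminal differentiation. Its proximal promoter is shown because the family's own E-box sites are known to act there: the 250 bases before the RefSeq start lie at chr1:134289754-134290003 (GRCm38.p6, plus strand), with its 2 E-box matches (CANNTG) in capitals, the nearer beginning 12 bases before the start.
Myog: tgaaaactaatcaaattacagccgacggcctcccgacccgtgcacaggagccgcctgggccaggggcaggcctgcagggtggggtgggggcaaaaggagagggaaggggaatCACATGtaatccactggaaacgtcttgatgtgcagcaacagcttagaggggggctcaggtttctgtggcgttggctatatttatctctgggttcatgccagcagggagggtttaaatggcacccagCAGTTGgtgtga
Myog stood at 4.56, 2.73 and 5.68 CPM in WT sedentary and at 3.11, 2.96 and 3.58 CPM in WT treadmill libraries. NRF2-KO libraries held 3.28, 4.38 and 3.44 CPM in sedentary and 3.16, 4.38 and 3.62 CPM in treadmill mice. The WT sedentary group held both the highest and the lowest of all 12 values. The WT exercise difference was -0.43 ± 0.22 (SE; interval -0.91 to 0.05; edgeR adjusted p = 0.999), and the interaction was 0.43 (interval -0.25 to 1.11; edgeR adjusted p = 1).

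In the numbered WT pairs the treadmill library was below the sedentary one in 3 of 3 pairs for 3 members, Pax7, Ncam1 and Cdkn1a, and 27.4% of all genes had their 3 pairs in one direction, higher or lower. In WT mice the log2 fold change was -0.29 for Ncam1, whose 12 libraries ran from 1.97 to 3.55 CPM, and -0.27 for Cdkn1a, for which it came to -0.01 without WT sedentary replicate 1. Myf5 ran from 1.08 to 2.44 CPM over the 12 libraries, and both its extremes were WT libraries. Myf6, the most abundant factor of adult fibres, ran from 117 to 165 CPM. Its WT sedentary libraries, at 117, 148 and 152 CPM, and WT treadmill libraries, at 130, 143 and 165 CPM, spread more widely than the NRF2-KO libraries, at 137 to 152 CPM, and the lowest in each WT group was the library of lane 7 or lane 8.

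Members differed in their pattern from library to library. Over the 12 libraries the highest Pearson correlation of log2 CPM between members was 0.73, for Cdh15 and Myod1, and the lowest was -0.65, for Pax7 and Myf6. These are descriptions over libraries that share lanes and groups. For each member the 3 genes with the most similar pattern were taken from 12763 named candidates. Their correlations are the highest of many and were not set against those that unrelated genes would give. For Myog the nearest were Tnni1 and Tnnt1, the troponins I and T of slow fibres, at 0.86 and 0.82 over 12 libraries, or 0.74 and 0.64 without the 2 libraries farthest from the median of Myog. WT sedentary replicate 3 had the highest values of all 3 genes (Tnni1 71.2 CPM, Tnnt1 97.7 CPM) and WT sedentary replicate 2 the lowest (19.3 and 39.0 CPM). Ggct came next, at 0.80, or 0.58 without the 2 farthest libraries. The slow myosin Myh7 stood at 66.9 CPM in WT sedentary replicate 3, beside 5.68 CPM of Myog. Myh7 was higher in WT sedentary replicate 1, at 76.5 CPM beside 4.56 CPM of Myog. It was also higher in NRF2-KO treadmill replicate 2, at 69.9 CPM beside 4.38 CPM of Myog. NRF2-KO treadmill replicate 1 held 65.8 CPM of Myh7 beside 3.16 CPM of Myog. How Myh7 went with Myog over the 12 libraries was not tested.

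**Figure D5:**
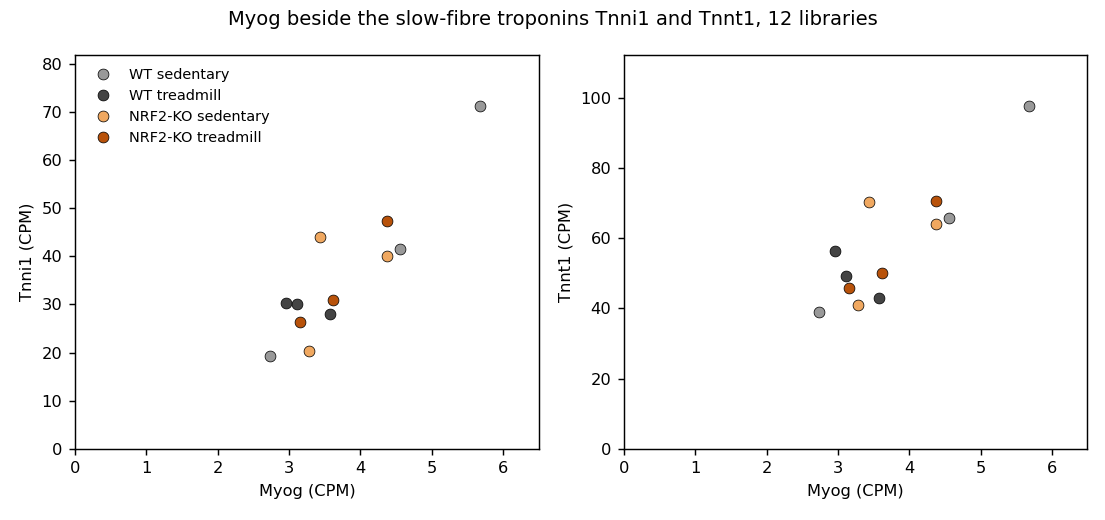
CPM of Tnni1 (left) and Tnnt1 (right) against CPM of Myog in the 12 libraries, coloured by group. The WT sedentary libraries span the whole range, from 19.3 CPM of Tnni1 beside 2.73 CPM of Myog to 71.2 CPM beside 5.68 CPM.

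For Pax7 the nearest was Cdk8, a kinase of the Mediator complex, at 0.92, or 0.84 without the 2 libraries farthest out. For Cdkn1a the nearest were Peak1 (0.89), Wdr83os (0.89) and Zfp827 (0.88). Cdh15 and Myod1 each lay nearest to a gene of the mitochondrial ribosome, Mrpl10 at 0.95 and Mrps12 at 0.93, and Myf6 to Csnk2a1, the catalytic subunit of casein kinase 2, at 0.95. The nearest of Myf5 was Tlr4 at 0.91, which came to 0.59 without the 2 libraries farthest out, and that of Ncam1 was Fgd1, at 0.88 and then 0.70.

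Beyond the members, 10 lists of genes that act with them were read in the averaged NRF2-KO comparison, in which 53.02% of all genes had a fitted value above 0. Of 17 other satellite cell genes 0 passed, with 10 above 0 and a median log2 fold change of 0.03. Of 27 partners and regulators of the myogenic factors 0 passed, with 13 above 0. The smallest p there belonged to Srf, the serum response factor that drives muscle actins, at -0.25 (edgeR adjusted p = 0.0684). Of 15 Notch pathway genes, which keep satellite cells quiescent, 0 passed and 10 were above 0. Of 11 fusion and developmental muscle genes 0 passed and 6 were above 0.

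The lists nearest to Cdkn1a in function held no gene that passed. At an unadjusted p under 0.05 in edgeR the CDK inhibitor list held 5 of 14 genes and the p53 list 5 of 18. The S phase and mitosis list held 0 of 14 and the glucocorticoid or FOXO list 1 of 14, where 12.4% of all genes did. Of 14 other CDK inhibitors, their kinases, D cyclins and pocket proteins 0 passed, with 8 above 0. Among them Cdkn1c, which encodes p57, was at 0.21 (edgeR adjusted p = 0.231) and Cdkn2d, which encodes p19, at -0.16 (edgeR adjusted p = 0.315). Of 18 other p53 target genes 0 passed, with 10 above 0 and a median of 0.03, which became 7 above 0 and a median of -0.05 with lane as a term. Phlda3, which restrains AKT, was at -0.27 (edgeR adjusted p = 0.0868) and Trp53inp1, a p53 cofactor, at 0.31 (edgeR adjusted p = 0.253). Of 14 S phase and mitosis genes 0 passed, with 7 above and 7 below 0. Of 14 genes that respond to glucocorticoids or FOXO, which also act on Cdkn1a, 0 passed, with 12 below 0 and a median of -0.14, or 8 below 0 and -0.04 with lane as a term.

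Among the denervation-responsive genes 1 of 13 passed, Musk, in the direction opposite to Cdkn1a. Musk encodes the receptor kinase that gathers acetylcholine receptors at the neuromuscular junction. It stood at 29.3, 35.6 and 28.4 CPM in WT sedentary and at 30.7, 29.2 and 26.3 CPM in WT treadmill libraries. NRF2-KO libraries held 25.6, 18.2 and 15.9 CPM in sedentary and 24.7, 20.1 and 20.7 CPM in treadmill mice. Every NRF2-KO library was below every WT library, as for 1.79% of all genes in either direction. Musk fell by 0.52 ± 0.11 (SE) on the log2 scale (edgeR adjusted p = 0.0384), and its log2 fold change was -0.52 within lane 3 and -0.53 within lane 4. The call was lost without lanes 7 and 8 (edgeR adjusted p = 0.0561), within lane 3 (0.13) and lane 4 (0.115) alone, without TMM (0.0563), and without NRF2-KO sedentary replicate 2 or 3, NRF2-KO treadmill replicate 1, 2 or 3, WT sedentary replicate 2, or WT treadmill replicate 1 or 2 (0.0506 to 0.124). The other 12 genes of that list did not pass, and 10 of the 13 were below 0, with a median of -0.16.

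Markers of other cells were read beside these values. All 8 Schwann cell markers had averaged fitted values above 0, with a median of 0.20 and 0 that passed. Their summed level ran from 89.9 to 102 CPM in NRF2-KO and from 65.8 to 102 CPM in WT libraries, and none was at 0 in any library. All 5 pericyte markers (median 0.15), 6 of 7 endothelial (0.12), 5 of 6 macrophage (0.05), 4 of 5 adipocyte (0.17) and 4 of 7 fibroblast markers (0.04) were also above 0, with 0 that passed, and the summed levels of each of these lists overlapped between the genotypes. Of the muscle fibre markers 4 of 7 were above 0 (median 0.03), and of the red blood cell markers 0 of 5 (-0.04), with 0 that passed. The part of all these lists in the members' values was not tested. All 5 tendon cell markers were above 0, with a median of 0.35, and 1 passed: Thbs4, thrombospondin 4 of tendon and muscle matrix, rose from 143 to 182 CPM, a log2 fold change of 0.35 (edgeR adjusted p = 0.0245). The summed tendon markers ran from 318 to 405 CPM in NRF2-KO and from 234 to 305 CPM in WT libraries, and their part in the members' values was not tested. The Thbs4 call was lost without TMM, within lane 4 alone, and without NRF2-KO sedentary replicate 2 or 3, NRF2-KO treadmill replicate 1, 2 or 3, WT sedentary replicate 2, or WT treadmill replicate 2 or 3 (edgeR adjusted p from 0.054 to 0.0807 for single libraries). The summed satellite cell markers, of which 3 are members, ran from 61.2 to 73.8 CPM in NRF2-KO libraries. In WT libraries the sum ran from 65.1 to 78.2 CPM, and the genotypes overlapped. Itga7 alone ran from 41.5 to 53.5 CPM across the libraries and made up most of this sum. The overlap therefore says little about Pax7, Myf5 or Calcr, and satellite cell content was not tested.

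The growth factors of the satellite cell niche and their receptors held 0 of 16 that passed in the averaged NRF2-KO comparison, with 13 above 0 and a median of 0.07. Fst encodes follistatin, the secreted binder of myostatin and activins, and had the smallest p of that list, at 0.43 (edgeR adjusted p = 0.112). Lif, a cytokine that stimulates myoblast growth, was at 0.47 (edgeR adjusted p = 0.371).

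In the averaged exercise comparison 0 genes of any list passed, and 48.9% of all genes were above 0. Of the 17 other satellite cell genes 14 were below 0, with a median of -0.14. Beside 4.15% of all genes, 2 of the 17 had an unadjusted p under 0.05 in edgeR. They were Megf10, a receptor that keeps satellite cells proliferating, at -0.67, and Sdc3, syndecan 3 of the satellite cell surface, at -0.33 (edgeR adjusted p = 0.971 for each). Of the 11 fusion and developmental muscle genes 10 were below 0, with a median of -0.20. The smallest p there was that of Actc1, the cardiac actin that developing and regenerating fibres express, at -0.59, from 63.8 to 42.2 CPM (edgeR adjusted p = 0.971). All 6 defining satellite cell markers were below 0, with a median of -0.13, but each is a member or already among the 17 other satellite cell genes. Markers of other cells lay below 0 as well: 5 of 6 macrophage (median -0.16), 4 of 5 tendon cell (-0.14), 5 of 7 fibroblast (-0.11), 4 of 5 adipocyte (-0.04) and 5 of 7 endothelial markers (-0.02), while 4 of 8 Schwann cell and 2 of 5 pericyte markers did. Of the red blood cell markers 4 of 5 lay above 0 (median 0.04), and of the muscle fibre markers 5 of 7 (0.01). Their part in the exercise values was not tested. Of the 14 S phase and mitosis genes 9 were below 0, and Top2a, a topoisomerase of dividing cells, was at -0.72 (edgeR adjusted p = 0.971). Below 0 were also 12 of 15 Notch pathway genes (median -0.05), 10 of 16 niche factors (-0.06) and 8 of 13 denervation-responsive genes (-0.12). In the remaining lists 15 of 27 partners and regulators, 8 of 14 CDK list genes, 9 of 18 p53 targets and 6 of 14 glucocorticoid or FOXO genes did so. The Notch and the glucocorticoid or FOXO lists each held 2 at an unadjusted p under 0.05 in edgeR.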

How the data were processed

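RNA of 12 muscle samples was sequenced from libraries made with a TruSeq RNA kit, version 2, per the labels' protocols. STAR 2.4.1d, featureCounts 1.4.6-p4, bcl2fastq 1.8.4 and the build GRCm38 are named in the submitters' processing notes. Not given in the sources used here are the annotation release, strand setting and handling of multiply mapped reads. The authors deposited raw counts per Ensembl gene, and their second table, of RPKM values, was not used here. Symbols, coordinates and exon lengths came from GENCODE M21, promoters from RefSeq.

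Counts of 14194 genes (99.94% of all counts) past filterByExpr (minimum count 10, minimum total 15) were tested in R 4.3.3 with edgeR 4.0.16: TMM, 1 mean per group, quasi-likelihood test, Benjamini-Hochberg adjustment at 0.05, in 7 comparisons, with 8 residual degrees of freedom. Intervals are 95%. DESeq2 1.42.0 was an alternative. The tests were checked on simulated counts. Log2 CPM used a prior count of 2.

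The members, lists and rule for named genes were chosen with earlier results of these data known. The rule names the members, Nfe2l2, Myh4 and Myh7, the 3 genes most like each member by Pearson correlation, and from each list up to 4 genes that passed or, where none did, up to 2 of smallest p. Not every gene that this rule names is reported here. Lists were described by counts and medians, without a set test.

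Same-numbered WT sedentary and WT treadmill libraries deviated together (correlations 0.537, 0.301 and 0.259), so the numbers, which come from the labels, were taken to pair the WT groups. In WT mice number 1 is also lane 7 or 8, number 2 lane 3 and number 3 lane 4, so pairing and lane cannot be told apart. In the other pairs of groups at least 1 correlation was below 0.1.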

Additional observations from a re-analysis of the deposited data

How the results depend on the processing

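Under DESeq2, library totals without TMM, each single lane and each library left out, no member passed in any of the 7 comparisons that could be fitted. Cdkn1a was the 1 member that passed under an alternative: in the averaged NRF2-KO comparison without the filter on low counts, with lane as a term, and with lane as a term without lanes 7 and 8 (an alternative chosen after seeing the data), and in treadmill mice without the filter. Counts over all genes moved more, and the cause was not tested. The averaged NRF2-KO comparison called 98 genes, but 235 with DESeq2, 567 without the filter, 264 with lane as a term, 157 without lanes 7 and 8, 274 with both, 31 within lane 4 alone and 53 to 166 with 1 library left out. The sedentary one called 27, but 72, 323, 81 and 61 with DESeq2, no filter, lane as a term and that term without lanes 7 and 8, and 16 to 36 with 1 library left out. The treadmill one called 23, but 55, 207, 103 and 86 in that order, 37 without lanes 7 and 8 and 15 to 30 with 1 library left out. The exercise comparisons called 0 genes, but without the filter 33 in WT, 139 in NRF2-KO, 91 averaged and 68 in the interaction. With lane as a term the averaged exercise comparison called 28 and that in NRF2-KO 26, or 32 without lanes 7 and 8, and DESeq2 called 1 in the averaged one.

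The replicate number as a block raised the calls of the NRF2-KO comparisons to 217 averaged, 42 in sedentary and 40 in treadmill mice. A paired fit within the WT libraries called 1 gene for exercise, and within the NRF2-KO libraries, whose numbers did not pair them, 54. No block changed the call of a member, of Musk or of Thbs4.

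Of the members near 0 in the averaged NRF2-KO comparison, 5 took the other sign under an alternative, none of them past the threshold. Myf5 came to -0.16 within lane 4 and -0.052 to 0.16 with 1 library left out. Myf6 came to 0.0043 under the replicate block and -0.059 to 0.041 with 1 library left out. Myog came to 0.019 with lane as a term, 0.015 with that term without lanes 7 and 8, 0.34 within lane 3 and -0.13 to 0.10 with 1 library left out. Ncam1 came to 0.28 within lane 3 and -0.12 to 0.0082 with 1 library left out. Pax7 came to 0.016 with lane as a term, 0.0201 without lanes 7 and 8, and 0.0201 with both.

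Counts in a library were low for Pax7 (33 to 80), Myf5 (22 to 64) and Ncam1 (40 to 106), which limits their precision. Each exercise comparison within a genotype rests on 3 libraries a group. Lanes 7 and 8 hold WT libraries alone, so lane and genotype cannot be told apart there.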

Other observations

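The 14 genes that respond to glucocorticoids or FOXO, among them Fkbp5, a chaperone of steroid receptors, and Trim63 and Fbxo32, the ubiquitin ligases of muscle atrophy, held 4 with a fitted exercise value above 0 in WT mice, with a median log2 fold change of -0.08. In NRF2-KO mice all 14 were above 0, with a median of 0.24. Fkbp5 was at 0.60 in NRF2-KO and 0.20 in WT mice. In the interaction all 14 were above 0, with a median of 0.28, where 48.1% of all genes were above 0. In edgeR 0 of the 14 passed there and 1 had an unadjusted p under 0.05, and DESeq2 called 0. The WT median changed sign without WT sedentary replicate 1 (0.06, 8 above 0) or WT treadmill replicate 3 (0.03, 7 above 0), and ran down to -0.16 without WT sedentary replicate 3 and -0.15 (2 above 0) without WT treadmill replicate 1. It was -0.04 without WT sedentary replicate 2. The NRF2-KO median was 0.11 (11 above 0) without NRF2-KO treadmill replicate 1 and 0.13 (13 above 0) without NRF2-KO sedentary replicate 3. With 1 library left out the interaction held 11 to 14 above 0, the fewest without WT sedentary replicate 1, and its median ran from 0.17, without WT treadmill replicate 3, to 0.37.

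Of the 5 red blood cell genes, in WT mice 5 of 5 were above 0 with exercise, with a median of 0.64, and in NRF2-KO mice 0 were, with a median of -0.54. With 1 library left out the WT median ran from 0.51 to 0.79. The NRF2-KO median was -0.33 (1 above 0) without NRF2-KO sedentary replicate 1 and -0.84 without NRF2-KO treadmill replicate 2, the ends of its range. In the interaction 0 were above 0, with a median of -1.19; in edgeR 4 had an unadjusted p under 0.05 and 0 passed, and DESeq2 called 0. Without the filter on low counts 4 of the 5, and 3 of the 14 glucocorticoid or FOXO genes, passed in the interaction. The exercise values and the interaction share all their libraries, and what moves with these lists was not tested.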
